A study of Mus musculus with 6 samples.

Results

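The miR-10, miR-99 and miR-100 family of microRNAs (miRNAs) was followed in small RNA from mouse liver. Its members were chosen by name, as every mouse entry of miR-10a, miR-10b, miR-99a, miR-99b and miR-100 on either arm of the hairpin, from mmu-miR-10a-5p and mmu-miR-10b-5p to mmu-miR-99a-3p, mmu-miR-99b-3p and mmu-miR-100-3p. These are 10 of the 1963 distinct mature mouse sequences in the deposited table, and the rule uses names and no measured value. The mice had received AAV9, an adeno-associated virus used to carry genes into tissue, with Cre recombinase behind the heart muscle promoter Tnnt2 (the Cre group, AAV-Tnnt2-Cre). The vector of the other group had miR122 added (the Cre-miR122 group, AAV-Tnnt2-Cre-miR122), and the labels do not explain what that addition encodes. Both groups share the vector type, Cre and the promoter. The labels state no strain, age, sex, dose or time after injection. The labels name 3 Cre-miR122 and 3 Cre libraries. Only replicate 2 of Cre-miR122 was analysed and the other 5 were not analysed here, so there was no replicate and no test between groups.

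miR-10 and miR-100 belong to an old lineage of animal miRNAs. The genes of miR-10a and miR-10b sit among the Hox genes, which encode transcription factors of position along the body axis, and Hox mRNAs have been described among the targets of miR-10. The genes of miR-99a, miR-99b and miR-100 each sit beside a let-7 gene and a miR-125 gene, and Mtor, which encodes a growth-regulating kinase, is a known target of this branch. A miRNA finds its targets mainly through its seed, bases 2 to 8 from the 5′ end, so a start moved by 1 base gives another seed.

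The mature 5p sequences are shown because the comparison of seeds, starts and ends turns on them. They are written 5′ to 3′ with T for U, as in the deposited table, and capitals mark the seed.
miR-10a-5p: tACCCTGTagatccgaatttgtg
miR-10b-5p: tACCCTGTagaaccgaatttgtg
miR-99a-5p: aACCCGTAgatccgatcttgtg
miR-99b-5p: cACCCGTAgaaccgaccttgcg
miR-100-5p: aACCCGTAgatccgaacttgtg

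All 10 mature sequences matched those of RefSeq on GRCm38.p6. The miR-10 pair shares 1 seed and differs by the substitution T12A, counted from 1 at the 5′ end with the base of miR-10a-5p first. miR-99a-5p, miR-99b-5p and miR-100-5p share another seed. miR-99a-5p differs from miR-100-5p by T16A alone and from miR-99b-5p by A1C, T11A, T16C and T21C. The seeds of the 2 branches agree in their first 4 bases. When miR-10a-5p and miR-100-5p were laid side by side from their first bases, 8 of 22 positions were equal. With miR-10a-5p started 1 base later, 19 of 22 were equal, and 5 of the 7 seed positions. The shifted seed CCCTGTA is the seed of 0 of the 1963 mouse sequences.

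The hairpins come from GENCODE M21 on GRCm38, the assembly of mm10, and their mature arms are in capitals. They show which bases follow each 5p arm, on which the results on 3′ ends depend.
Mir10a: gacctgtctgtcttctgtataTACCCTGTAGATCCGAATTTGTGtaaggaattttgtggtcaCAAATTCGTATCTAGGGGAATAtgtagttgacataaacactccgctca
Mir10b: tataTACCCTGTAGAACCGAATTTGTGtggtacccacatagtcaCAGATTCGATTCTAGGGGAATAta
Mir99a: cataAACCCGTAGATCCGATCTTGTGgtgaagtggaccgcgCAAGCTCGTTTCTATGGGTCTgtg
Mir99b: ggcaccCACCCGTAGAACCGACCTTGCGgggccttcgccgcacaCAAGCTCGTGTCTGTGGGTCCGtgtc
Mir100: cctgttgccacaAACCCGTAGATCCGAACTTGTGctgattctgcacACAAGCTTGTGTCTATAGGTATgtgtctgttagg

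All 5 hairpins lie on the plus strand. Mir10a (ENSMUSG00000065519.1) is at chr11:96317165-96317274, in no other annotated gene and 993 nt from Hoxb4. Mir10b (ENSMUSG00000065500.3) is at chr2:74726070-74726137, in introns of Hoxd3 and Hoxd4. Mir99a (ENSMUSG00000065530.1) is at chr16:77598936-77599000, in an intron of the noncoding gene Mir99ahg and, on the opposite strand, in an intron of the protein-coding gene Gm11146. Mir99b (ENSMUSG00000065396.1) is at chr17:17830188-17830257, in an intron of Spaca6. Mir100 (ENSMUSG00000093011.1) is at chr9:41531425-41531504, in introns of the noncoding genes 3110039I08Rik and Gm49317 and, on the opposite strand, in an exon of Gm48742. Each member sequence was found in 1 annotated hairpin, so its reads were assigned to 1 locus. miR-10a-5p and miR-10b-5p differ by 1 base, as do miR-99a-5p and miR-100-5p. Counts within these pairs may include reads of the other arm, since it is not stated whether the counting allowed mismatches.

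The library held 6661069 reads on mouse entries, of which miR-148a-3p took 57.9%. Of the hepatocyte markers, 3 of 3 were detected, from 4017 reads of miR-194-5p to 236027 of miR-122-5p. The 4 striated muscle markers were detected too, from 251 reads of miR-499-5p to 980271 of miR-1a-3p. By mouse entries miR-1a-3p stood at rank 2, above miR-122-5p at rank 3. Between these extremes lay miR-192-5p with 72085 reads, miR-206-3p with 68854 and miR-133a-3p with 915. The endothelial miR-126a-3p held 59356 reads, the mesenchymal miR-143-3p 135826 and miR-145a-5p 1902, and the blood markers miR-451a and miR-486a-5p 305 and 2549. None of the 12 markers was at 0. These are counts of mouse entries, and the end forms described below raised them unequally. With end forms miR-1a-3p held 1065891 reads, miR-122-5p 685102, miR-194-5p 18596, miR-133a-3p 11609 and miR-451a 2635. miR-1a-3p and miR-122-5p kept ranks 2 and 3. The part of each cell type in the reads of the family was not tested. In bulk RNA, fewer cells of a type and less of a miRNA per cell cannot be told apart.

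By the mouse entries the family held 38886 reads, or 0.584% of mouse reads (0.578 to 0.590). Intervals in parentheses are exact 95% intervals, Clopper-Pearson for shares and binomial given the sum for ratios. They cover the counting error of reads alone, and reads that are PCR copies were counted as separate. The 5p arms took 38520 of these reads and the 3p arms 366. Of the 10 members, 7 had reads at their mouse entry. Over all 1963 distinct mouse sequences, 546 had reads.

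Among the 5p arms miR-100-5p was highest with 18091 reads, 0.272% of mouse reads (0.268 to 0.276). miR-99b-5p followed with 9101 reads, or 0.137% (0.134 to 0.139). The Hox-locus miR-10a-5p held 5913 reads, or 0.0888% (0.0865 to 0.0911). miR-99a-5p held 2916 reads, or 0.0438% (0.0422 to 0.0454), and miR-10b-5p 2499, or 0.0375% (0.0361 to 0.0390). No 2 of these intervals overlap. In the order of all mouse sequences the 5 arms stood at ranks 21, 24, 30, 41 and 47. miR-10a-5p had 2.37 reads per read of miR-10b-5p (2.26 to 2.48). The miR-10 arms together had 0.279 reads per read of the miR-99 and miR-100 arms (0.273 to 0.286).

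That order did not hold when the other ends of the same arms were counted. The table lists miRNAs of many species, and an entry of another species often equals the mouse hairpin with a start or end moved by a base. Such an entry is an end form. Of 41 end forms that the table records on the 10 member arms, 27 had reads, a share not compared with other mouse arms. Counting these end forms, the family held 114970 reads, 2.96 times its mouse entries. That was 1.43% (1.42 to 1.44) of the 8032202 reads on mouse sequences and end forms. miR-99a-5p then came first with 40032 reads, 13.7 times its mouse entry. miR-10a-5p was next with 31706, 5.36 times its entry, ahead of miR-100-5p with 24537, 1.36 times its entry. miR-99b-5p with 9101 and miR-10b-5p with 9021 did not differ beyond counting error, at 1.01 reads of the first per read of the other (0.980 to 1.04).

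**Figure D1:**
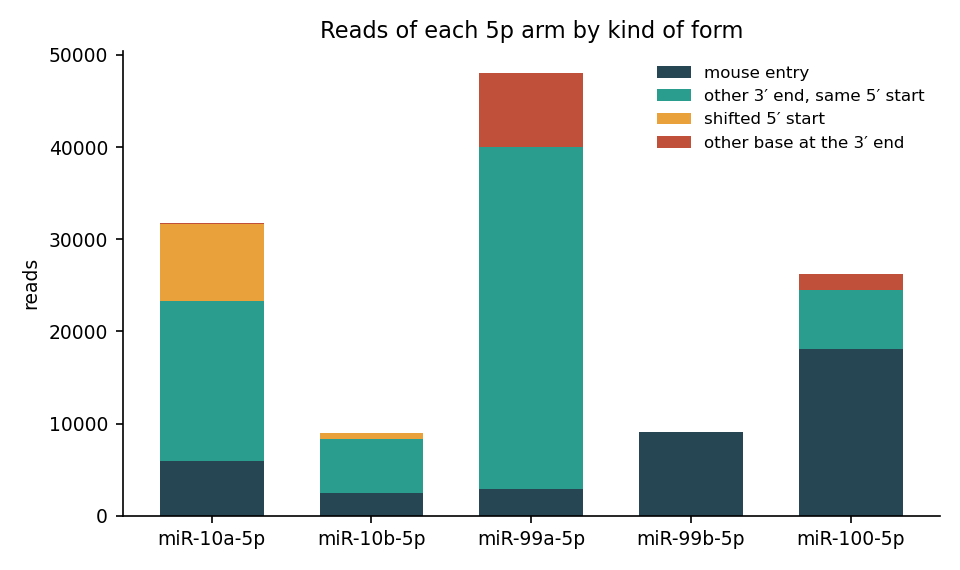
Reads of the 5 family 5p arms in 1 library, stacked by kind of form: the mouse entry, end forms with the same 5′ start, end forms with a shifted 5′ start, and forms with another base at the 3′ end. miR-100-5p has the tallest mouse-entry segment, and miR-99a-5p the tallest full bar.

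The forms that could be seen differ between arms, which limits this order. The table records 7 end forms each for miR-10a-5p and miR-10b-5p, 4 for miR-99a-5p and 3 for miR-100-5p. For miR-99b-5p it records only 1, which ends 3 nt later and had 0 reads, so its total with end forms may be too low. 2 forms are recorded for the 4 other arms alike, the mouse entry and the form that ends 1 nt earlier. Over these 2 forms miR-99a-5p held 39859 reads, miR-100-5p 24521, miR-10a-5p 21158 and miR-10b-5p 7797. miR-99a-5p thus had 1.63 reads per read of miR-100-5p (1.60 to 1.65), against 0.161 by mouse entries alone. miR-100-5p had 1.16 reads per read of miR-10a-5p (1.14 to 1.18), so the order of those 2 arms depends on the shifted starts of miR-10a-5p. miR-10a-5p had 2.71 reads per read of miR-10b-5p (2.64 to 2.79).

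Most of the added reads differed from the mouse entry at the 3′ end. The form of miR-99a-5p that ends 1 nt before the mouse entry held 36943 reads, 12.7 per read of the entry (12.2 to 13.2). In miR-100-5p, which differs from it by T16A alone, the same form held 6430 reads, 0.355 per read of the entry (0.345 to 0.366). The 2 arms thus had opposite main ends. The corresponding form held 15245 reads in miR-10a-5p, 2.58 per read of the entry (2.50 to 2.66), and 5298 reads in miR-10b-5p, 2.12 per read (2.02 to 2.22). In both Hox-locus members, as in miR-99a-5p, the shorter form had more reads than the entry.
miR-99a-5p, 1 nt shorter: aACCCGTAgatccgatcttgt
miR-100-5p, 1 nt shorter: aACCCGTAgatccgaacttgt

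**Figure D2:**
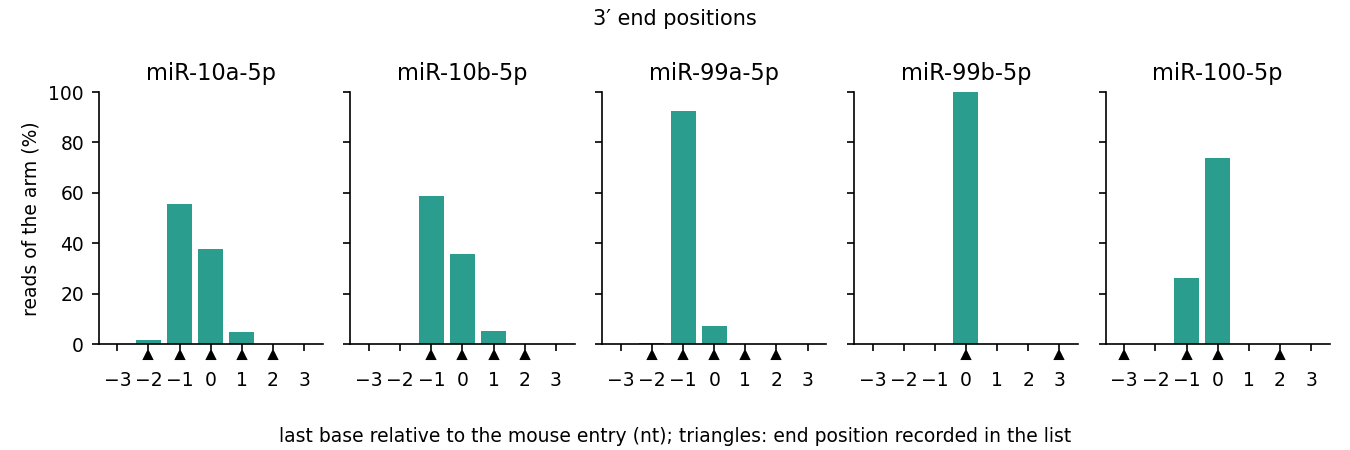
Share of the reads of each 5p arm (mouse entry and end forms) by the position of the last base, in nt from the last base of the mouse entry; triangles mark end positions that the table records, and forms ending 5 nt earlier (4 and 2 reads) lie outside the axis. Reads 1 nt short make up 92.3% of miR-99a-5p and 26.2% of miR-100-5p.

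Over 95 mouse arms with at least 1000 reads including end forms, the median share of the arm on its mouse entry was 69.3%. It held 7.28% in miR-99a-5p (7.03 to 7.54), rank 85 from the highest. In miR-10a-5p it held 18.6% (18.2 to 19.1) and in miR-10b-5p 27.7% (26.8 to 28.6), ranks 73 and 66. It held 73.7% in miR-100-5p (73.2 to 74.3), rank 46. In miR-99b-5p it held 100% (99.96 to 100), rank 1 in a tie, where only 1 other form is recorded, with 0 reads. The ranks describe this library and depend on the forms recorded, of which the median arm had 3.

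Forms 1 nt longer than the mouse entry fell into forms that match the hairpin and forms that do not. In miR-10a-5p and miR-10b-5p the longer form ends in T, the next base of the hairpin, and held 1612 reads, 5.08% of the arm (4.84 to 5.33), and 466 reads, 5.17% (4.72 to 5.64). After miR-99a-5p the hairpin continues with G, and the form with that G held 3 reads. The form with A in its place, G23A, held 8026 reads, 16.7% of the reads of the arm with such forms counted (16.4 to 17.0). It had 2.75 reads per read of the mouse entry (2.64 to 2.87). After miR-100-5p the hairpin continues with C, and the form with T in its place, C23T, held 1688 reads, 6.43% (6.14 to 6.74). The form of miR-100-5p that follows the hairpin for 1 nt is not recorded, and that for 2 nt held 5 reads. The counts of G23A and C23T may include reads that end in another base, since it is not stated whether the counting allowed mismatches. The 4 forms follow, with the base beyond the mouse entry in capitals only where it differs from the hairpin.
miR-99a-5p, hairpin base: aacccgtagatccgatcttgtgg
miR-99a-5p, G23A: aacccgtagatccgatcttgtgA
miR-100-5p, hairpin bases, 2 nt longer: aacccgtagatccgaacttgtgct
miR-100-5p, C23T: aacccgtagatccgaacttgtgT

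A form 1 nt longer with a base other than that of the hairpin is recorded for 15 of the 95 arms. The share of reads it held had a median of 0.384% and was highest in miR-99a-5p, with miR-100-5p at rank 4. For an added A, miR-99a-5p was the 1 arm of the 95 with a recorded form, so no other arm could be set beside it. The hairpins alone were searched, and other places in the genome were not.

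The 5′ starts differed within the miR-10 pair. miR-10a-5p had 8380 reads that start 1 nt later, 26.4% of the arm (25.9 to 26.9), and miR-10b-5p had 749, or 8.30% (7.74 to 8.89). These reads carry the seed CCCTGTA in place of ACCCTGT. miR-10b-5p had 3 more reads that start 2 nt later.
miR-10a-5p, start 1 nt later: aCCCTGTAgatccgaatttgtg
miR-10b-5p, start 1 nt later: aCCCTGTAgaaccgaatttgtg

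The pair of forms that share the 3′ end of the mouse entry is recorded for both arms and allows a like comparison. Of those reads, 50.4% of miR-10a-5p (49.5 to 51.3), 6019 against 5913, started 1 nt later. In miR-10b-5p the share was 23.1% (21.6 to 24.5), 749 against 2499. The intervals do not overlap. Within miR-10a-5p the share at the end 1 nt earlier was 13.4% (12.9 to 13.9), 2353 against 15245, so reads with the later start more often had the longer 3′ end. That shorter form with a later start is not recorded for miR-10b-5p, whose 8.30% therefore leaves it out. The ratio of miR-10a-5p to miR-10b-5p was 2.37 at the mouse entry, 2.88 at the form 1 nt shorter, 3.46 at the form 1 nt longer and 8.04 (7.45 to 8.68) at the later start.

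**Figure D3:**
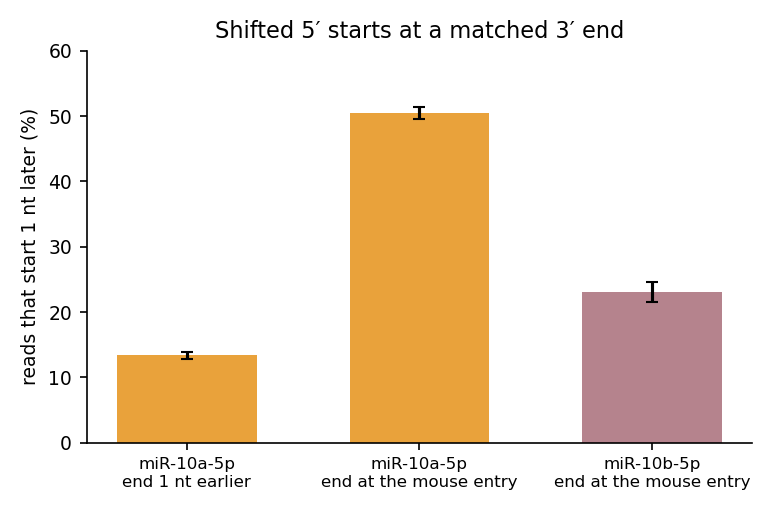
Share of reads that start 1 nt later than the mouse entry, in percent of the reads of both starts with the same 3′ end; bars are 1 library and error bars exact 95% intervals of the reads. miR-10a-5p reaches 50.4% at the mouse entry's end, above its 13.4% at the end 1 nt earlier and the 23.1% of miR-10b-5p.

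A start 1 nt later is recorded for 19 of the 95 arms, with a median share of 6.36%, and miR-10a-5p stood at rank 4 and miR-10b-5p at rank 9. For the miR-99 and miR-100 5p arms the table records no hairpin-matching form that starts 1 nt later, so no such share could be measured. The recorded form of miR-99a-5p that starts 1 nt earlier, which also ends 2 nt later, had 0 reads, where 3 reads are taken as the limit that a count of 0 allows. By seed, the miR-99 and miR-100 seed took 64.1% of the family's reads with end forms, the miR-10 seed 27.5% and the shifted miR-10 seed 7.94%.

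Reads came almost wholly from the 5p arm in every hairpin but Mir99b. With end forms the 3p arms held 573 reads, of which miR-99b-3p held 508. Its mouse entry had 364 reads, a form 1 nt longer 103 and a form 2 nt shorter 35. The 3p arm made up 5.29% of the reads of Mir99b (4.85 to 5.75), and this share may be too high because other ends of miR-99b-5p are not recorded. By mouse entries alone it was 3.85%, or 25.0 reads of the 5p arm per read of the 3p arm (22.5 to 27.8).
miR-99b-3p: cAAGCTCGtgtctgtgggtccg

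miR-10a-3p had 0 reads at its mouse entry and 56 with end forms, 0.176% of its hairpin (0.133 to 0.229). Of these, 55 were of the form that ends 1 nt earlier. miR-10b-3p had 0 reads at its mouse entry and 5 with end forms, 0.0554% (0.0180 to 0.129), all of a form that starts and ends 1 nt earlier. miR-100-3p had 2 and 4 reads, 0.0163% with end forms (0.00444 to 0.0417). miR-99a-3p had 0 reads in its mouse entry and in its 2 recorded end forms, 0% of its hairpin (0 to 0.00921). The 3p counts of Mir10b, Mir99a and Mir100 lay below 10 reads, and their intervals are wide.

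The cluster neighbours were let-7c and miR-125b for miR-99a, let-7e and miR-125a for miR-99b, and let-7a and miR-125b for miR-100. let-7 miRNAs hold back growth and stem-cell genes, and miR-125 is the mammalian form of worm lin-4. Mirlet7e starts 94 nt after Mir99b and Mir125a a further 367 nt after Mirlet7e. Mirlet7c-1 lies 656 nt after Mir99a and Mir125b-2 47272 nt after it. Mirlet7a-2 lies 5211 nt after Mir100 and Mir125b-1 50421 nt after it.

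The cluster of Mir99b is the one in which every 5p arm comes from 1 hairpin. There miR-99b-5p held 9101 reads, let-7e-5p 2187, or 2969 with end forms, and miR-125a-5p 90, or 1592 with end forms. miR-99b-5p was the highest of the 3 under either count. It had 4.16 reads per read of let-7e-5p (3.97 to 4.36), or 3.07 with end forms (2.94 to 3.20). Per read of miR-125a-5p it had 101 (82.2 to 126), or 5.72 with end forms (5.42 to 6.03). Of the 3p arms, miR-99b-3p held 508 reads with end forms, let-7e-3p 33 and miR-125a-3p 42, so the member was highest on this arm too.

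In the other clusters the let-7 and miR-125b 5p arms each come from 2 hairpins, so their reads could not be given to 1 cluster. miR-99a-5p had 0.108 reads per read of let-7c-5p (0.104 to 0.113) by mouse entries and 1.38 with end forms (1.36 to 1.40), which turned the order. let-7c-5p itself held 26908 reads, or 29036. For let-7c-5p 2 end forms are recorded and for miR-99a-5p 4, so the turned order depends on the forms recorded. miR-100-5p had 0.547 reads per read of let-7a-5p (0.537 to 0.557), or 0.573 with end forms (0.564 to 0.582). Both members were above miR-125b-5p, which held 854 reads, or 2334. Of the 3p arms that belong to 1 hairpin, let-7c-1-3p held 12 reads with end forms and let-7a-2-3p 4. miR-125b-2-3p, from the cluster of Mir99a, held 2 reads with end forms, and miR-125b-1-3p, from that of Mir100, held 147.

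**Figure D4:**
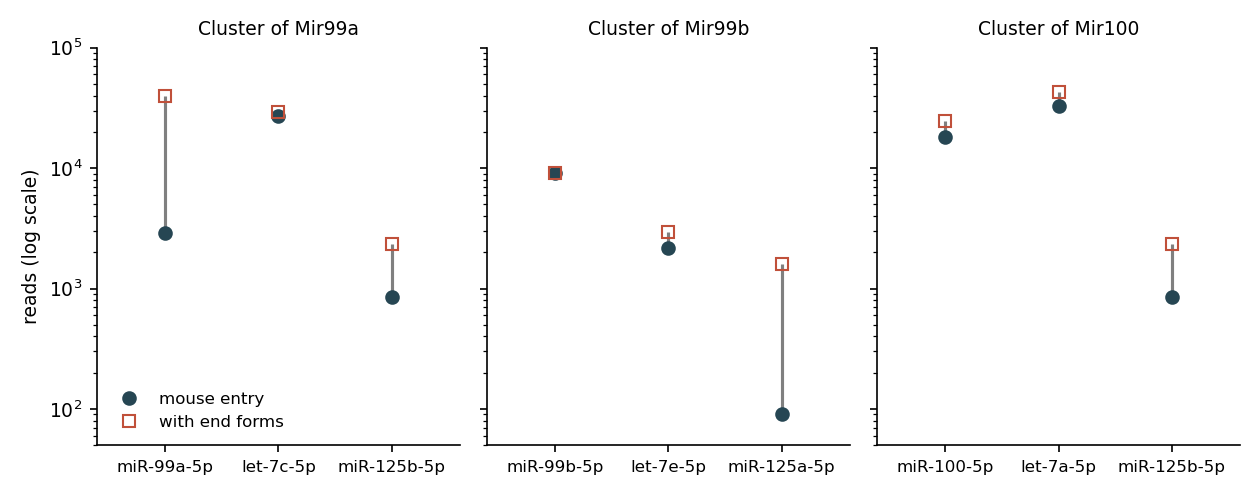
Reads on a log axis of each 5p arm in the clusters of Mir99a (chromosome 16), Mir99b (chromosome 17) and Mir100 (chromosome 9), for the mouse entry (filled circles) and with end forms (open squares), in 1 library without error bars. End forms move miR-99a-5p from 2916 to 40032 reads, above let-7c-5p, and miR-125a-5p from 90 to 1592; miR-125b-5p is drawn in both its clusters.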

How the data were processed

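Small RNA of mouse liver was ligated to adapters at both ends, amplified, size-selected and read as single ends, per the labels' protocols. The authors deposited raw read counts of 1 cleaned library for each of 48885 mature miRNA entries of 271 species codes, per the file headers. The submitters' processing notes name mm10. What program counted the reads, under which settings and against which release, is not given in the sources used here. 0 columns were left unmatched.

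Entries of equal sequence had equal counts, and each of the 30721 distinct sequences (8163802 reads) was used once. In 22 of 58 nested pairs of family forms the longer form had more reads, which a rule that counts a read for every entry it contains would not give. Rules that allow mismatches were not tested. Entries of other species were matched exactly to the 2202 miRNA hairpins of GENCODE M21, and counted as an end form where they shared at least 15 nt with 1 mouse entry. Forms whose last 1 or 2 bases differ from the hairpin were kept apart. No total before matching is given, so shares are of matched reads. Ligation favours some ends over others, and its effect was not measured. With 1 library the planned test between the groups was not run. Assignment and intervals were tested on simulated data. The simulated forms were cut from the same hairpins, and the counts were drawn without PCR copies or mismatches, so those limits were not tested.

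The named miRNAs are all members, their let-7 and miR-125 neighbours, fixed cell type markers, and end forms with at least 1 percent of a 5p arm; forms below that were named after their values were seen. The rule for members uses names alone, but the family and the lists were chosen with earlier results of these data known. Alternatives tried were other totals, other forms and another minimum overlap. Computing used SciPy 1.17.1 and NumPy 2.4.6 with pandas 2.3.3 under Python 3.11.15, and plots were drawn with matplotlib 3.10.9.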

Additional observations from a re-analysis of the deposited data

Results flagged for a closer look

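A signal outside the forms used above lay over the limit of 3 reads. Entries of other species that lie in no mouse hairpin but differ from a member arm by 1 substitution before the last 2 bases held 62 reads over 8 forms, 0.0539% of the family's reads with end forms. Of these, 6 forms differ at the first base: miR-100-5p with A1G held 20 reads and with A1T 13, and miR-10a-5p with T1A held 16 reads at the end 1 nt earlier and 4 at the end of the mouse entry. Their source was not tested, and whether the counting allowed mismatches is not given in the sources used here.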

How the results depend on the processing

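Of 28 alternative values of 17 results, 11 lay within the interval of the main value and 17 outside it. The family's 0.584% was 0.476% of all distinct sequences, 1.43% with end forms and 1.39% without miR-148a-3p. Reads of miR-10a-5p per read of miR-10b-5p went from 2.37 to 3.51 with end forms, 2.82 with end forms of the same start and 3.52 with changed 3′ ends added. The miR-10 arms against the miR-99 and miR-100 arms went from 0.279 to 0.553, 0.429 and 0.489 in the same order. With end forms the 5p arm held 99.8% of Mir10a in place of 100%, and 94.7% of Mir99b in place of 96.2%. Beside the neighbours, end forms gave 3.07 for miR-99b-5p per let-7e-5p, 5.72 per miR-125a-5p, 1.38 for miR-99a-5p per let-7c-5p, 17.2 per miR-125b-5p in place of 3.41, 0.573 for miR-100-5p per let-7a-5p and 10.5 per miR-125b-5p in place of 21.2. Each alternative differs from the main value by the reads it adds or leaves out. A minimum of 10 reads and summing over mouse entries did not move the family's share beyond its interval. The minimum overlap of 18 nt was applied to shares of shifted starts alone. All recorded forms of those arms share at least 18 nt with the mouse entry, so this setting could not change the values. No paired analysis was possible because only 1 library had counts here. Leaving out replicates was not run for that reason. Depth limits the 3p arms other than miR-99b-3p.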
